A study of Homo sapiens with 8 samples.

Results

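The genes described here are the potassium channel genes, taken as every protein-coding gene whose symbol starts with KCN followed by a letter. The rule used symbols and biotypes and no measured value, and it gave 97 genes out of 58302 in the count files, of which 19817 were protein-coding. By gene family, 40 of the 97 encode voltage-gated pore subunits, 16 encode inward rectifiers, 15 encode two-pore channels, 8 belong to the calcium-activated family and 18 encode auxiliary subunits. The calcium-activated family is counted with its sodium-activated and pH-gated relatives KCNT1, KCNT2 and KCNU1.

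RNA came from RD, an established human cell line from rhabdomyosarcoma, a soft tissue tumour with features of skeletal muscle. The control group was 4 libraries of RD cells with a scrambled short hairpin RNA, and the shPROX1 group was 4 libraries of RD cells with a hairpin that silences PROX1, a homeobox transcription factor. All 8 libraries came from the same line in the same serum-supplemented medium, and the series design calls the 4 in each group biological replicates. The labels do not state the time after silencing, the hairpin sequences or whether clones or pools of cells were used.

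Potassium channels let potassium leave or enter the cell along its gradient and so set the resting potential and end action potentials. Voltage-gated channels open on depolarization and are built from 4 subunits. Some voltage-gated subunits, called silent or modifier subunits, make no channel alone and act by joining Kv2 subunits. Inward rectifiers pass current best near the resting potential, two-pore channels give a background leak, and calcium-activated channels couple intracellular calcium to hyperpolarization. In skeletal muscle precursors, hyperpolarization through inward rectifiers and ether-a-go-go channels is known to precede fusion into myotubes.

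The libraries held 3747090 to 4865161 counts assigned to genes, and their totals did not separate the groups (exact two-sided permutation p = 0.514, n = 4 per group). A single count was worth 0.206 to 0.267 CPM (counts scaled to the library total), so that a gene with 0 counts could still lie at up to 0.617 to 0.801 CPM. PROX1 was measured at 20.02, 16.3, 16.7 and 21.6 CPM in control and at 7.68, 10.3, 9.07 and 8.14 CPM in shPROX1, with no overlap (log2 change -1.07 ± 0.15, edgeR adjusted p = 4.89e-06). The fitted fall in PROX1 RNA was 52.4%, while the series design gives the silencing as 75%, by a measure it does not name. Of 8 skeletal muscle lineage markers, 6 reached 1 CPM, MYF5 had 0 counts, and MYOD1 stood at 71.2 ± 7.72 CPM in control and did not pass the test (log2 change 0.04 ± 0.07), as was the case for CHRNA1 (0.01 ± 0.04). The other 4 fell: MYOG, a driver of myoblast differentiation, from 121 ± 5.27 to 47.8 ± 2.69 CPM (log2 change -1.32 ± 0.06, adjusted p = 1.65e-13), MYMK, needed for fusion (-1.31 ± 0.31), PAX7 (-0.41 ± 0.08) and DES (-0.18 ± 0.04). The summed muscle markers ranged from 1263 to 1293 CPM in control and from 1069 to 1160 CPM in shPROX1. Of 4 blood markers none reached 1 CPM, and of 4 endothelial markers only TEK did. Among 4 epithelial markers KRT18 and KRT8 reached 1 CPM, with EPCAM and CDH1 near 0, and the 4 summed to 176 to 207 CPM in control and 256 to 281 CPM in shPROX1. Among 5 fibroblast markers COL1A1 and THY1 reached 1 CPM, and the 5 summed to 123 to 145 and 158 to 171 CPM. Summed neuron markers overlapped (9.19 to 11.5 and 7.21 to 11.5 CPM), while the 3 glial markers, of which MBP made most, summed to 10.1 to 13.8 CPM in control and 4.42 to 7.34 CPM in shPROX1. The part of these marker shifts in the channel results was not tested, and in bulk RNA fewer cells of a kind and less RNA per cell cannot be told apart.

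RD cells transcribed a minority of the potassium channel genes. In control, 34 of 97 had a mean of at least 1 CPM, which is 35.1%, against 61.3% of all protein-coding genes. In shPROX1 the number was again 34, and 36 genes reached the level in at least one group. The voltage-gated class had 16 of 40 genes at this level in control, the inward rectifiers 7 of 16, the two-pore class 2 of 15, the calcium-activated family 3 of 8 and the auxiliary subunits 6 of 18. The two-pore class thus had the smallest share, 13.3%, and the other classes lay between 33.3% and 43.8%. No read was assigned in any library to 15 genes, among them KCNA5, KCNB2, KCNJ10 and KCNK18, and a further 39 had 1 to 9 counts over all 8 libraries. KCNJ2, the Kir2.1 channel known for its part in human myoblast differentiation, was among the latter with 5 counts. Just above the level in control stood KCNJ8 at 1.03 ± 0.534 CPM and just below it KCNE4 at 0.903 ± 0.495 CPM. Of the genes given here, the nearest in shPROX1 were KCNH3 at 1.19 ± 0.807 CPM and KCNIP3 at 0.771 ± 0.50 CPM.

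**Figure D1:**
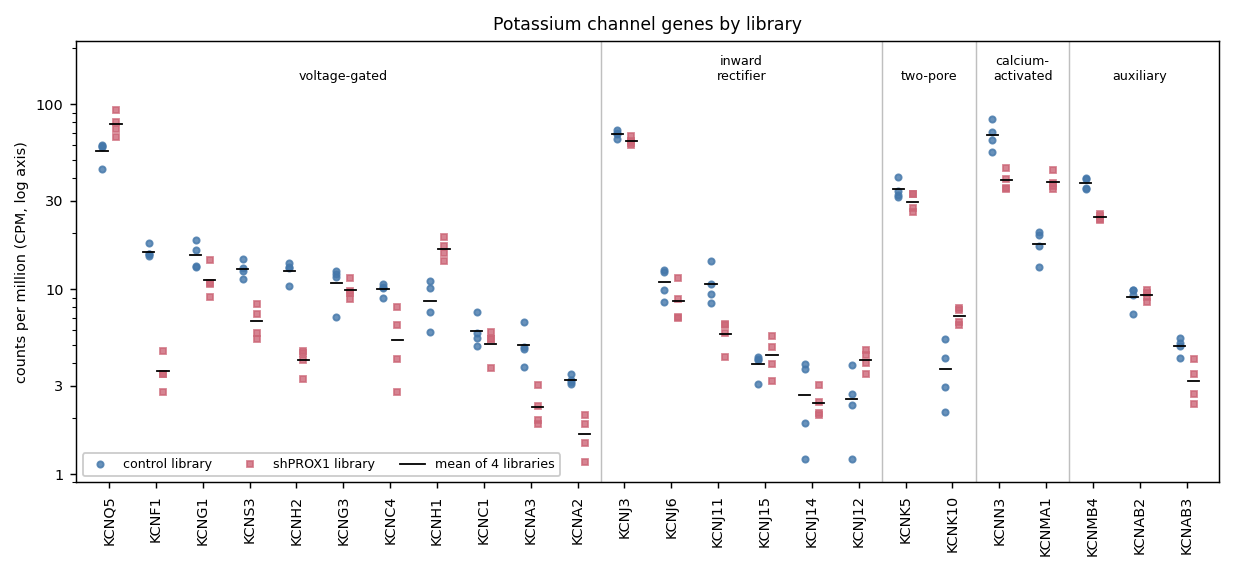
Level of 24 of the 26 tested potassium channel genes in every library (CPM, log axis), grouped by class, with 4 control libraries as circles, 4 shPROX1 libraries as squares and bars at the means. KCNF1, KCNH2 and KCNN3 lie lower in every shPROX1 library than in any control library, and KCNMA1, KCNH1 and KCNQ5 lie higher.

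Per kilobase of annotated exon, KCNJ3 stood first in control at 13.6 ± 0.611 CPM per kilobase (SD, n = 4). KCNJ3 encodes GIRK1, an inward rectifier opened by G protein beta-gamma subunits. KCNK5, a pH-sensitive two-pore leak channel (TASK-2), followed at 9.20 ± 1.05, then KCNMB4, a beta subunit of the BK channel, at 7.65 ± 0.553, KCNQ5, a KCNQ (Kv7) subunit of M-type current, at 7.36 ± 0.964, and KCNF1, a silent subunit, at 6.96 ± 0.516 CPM per kilobase. KCNMB4, KCNQ5 and KCNF1 each lay within 1 SD of the next, so their order is not firm. KCNN3, the small-conductance SK3 channel, stood at 5.01 ± 0.862 and KCNS3, another silent subunit, at 4.11 ± 0.430 CPM per kilobase. In shPROX1, KCNJ3 was still first at 12.4 ± 0.594 and KCNQ5 came next at 10.3 ± 1.51, while KCNF1 stood at 1.57 ± 0.337 CPM per kilobase. Lengths are the union of all annotated exons, which for KCNMA1 is 35644 bases and lowers its value.

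Of the 97 genes, 26 had enough counts to be tested, and the other 71 did not enter the fit. In the edgeR quasi-likelihood test, adjusted by the Benjamini-Hochberg method over 12392 genes, 15 of the 26 passed at 0.05, which is 57.7%, against 35.2% of all tested genes. Of these, 5 rose, or 19.2%, against 17.3% of all tested genes, and 10 fell, or 38.5%, against 17.9%. The share that rose was thus near that of all genes and the share that fell was higher. The libraries of the groups did not overlap for 15 of the 26, or 57.7%, against 32.3% of all tested genes. The median size of change, regardless of sign, was 0.64 on the log2 scale, against 0.18 over all tested genes. The sets were not matched for count level, and genes with few counts had larger standard errors (KCNJ14 0.34, against 0.06 for KCNJ3). These shares describe the genes that passed the filter, and no list test was made. KCNA2 and KCNA3 passed it only through control. In the other direction, KCNK10 and KCNJ12 reached its level in 4 shPROX1 libraries each, but in 3 and 2 control libraries. The filter level was 2.39 CPM, and 7 of the 26 fell short of it in at least one library, including KCNA2, which reached it only in control.

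By class, 10 of 13 tested voltage-gated genes passed (3 rose and 7 fell), 1 of 6 inward rectifiers (1 fell), 1 of 2 two-pore genes (1 rose), 2 of 2 calcium-activated genes (1 rose and 1 fell) and 1 of 3 auxiliary genes (1 fell). The median log2 change was -0.42 in the voltage-gated class, -0.12 in the inward rectifiers, 0.38 over both two-pore genes, 0.16 over both calcium-activated genes and -0.58 over the auxiliary genes, against -0.01 over all tested genes. Over all tested genes 35.2% passed, with 17.3% that rose and 17.9% that fell. Classes with 2 or 3 tested genes are too small to set against these shares. Differences between classes were not tested.

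**Figure D2:**
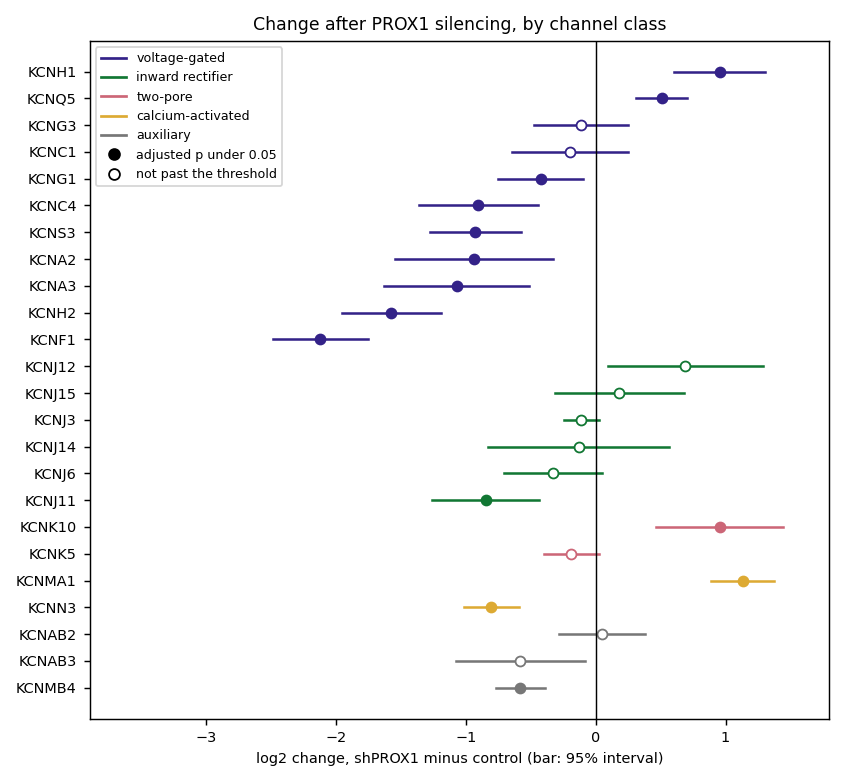
Log2 change (shPROX1 minus control) of 24 of the 26 tested potassium channel genes with 95% intervals of the edgeR fit, coloured by class, filled where the adjusted p was under 0.05. Voltage-gated genes run from -2.12 for KCNF1 to 0.95 for KCNH1, and 5 of the 6 inward rectifiers are open points.

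Upstream windows of 5 genes are printed because their genes were among those that moved and because some hold the motif counted below and others do not. Each is the 250 bases before the most upstream RefSeq start of the gene (GRCh38.p14), written 5′ to 3′ on the strand of the gene in lower case, with the E-box CAGCTG, a myogenic bHLH type site that reads the same on both strands, in capitals. They were chosen after the values were seen, among windows that lie outside the GENCODE 29 gene.
KCNF1 (chr2:10911684-10911933, plus strand): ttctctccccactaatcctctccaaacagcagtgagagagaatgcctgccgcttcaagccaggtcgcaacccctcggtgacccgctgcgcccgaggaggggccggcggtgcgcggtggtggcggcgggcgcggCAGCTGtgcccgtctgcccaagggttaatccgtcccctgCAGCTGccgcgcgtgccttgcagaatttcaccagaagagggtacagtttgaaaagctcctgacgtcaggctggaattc
KCNS3 (chr2:17877597-17877846, plus strand): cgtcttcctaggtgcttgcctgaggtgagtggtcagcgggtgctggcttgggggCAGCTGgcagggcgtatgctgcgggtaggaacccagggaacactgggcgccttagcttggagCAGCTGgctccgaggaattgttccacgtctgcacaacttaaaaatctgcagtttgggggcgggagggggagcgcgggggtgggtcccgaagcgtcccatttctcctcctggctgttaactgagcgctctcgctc
KCNN3 (chr1:154870282-154870531, minus strand): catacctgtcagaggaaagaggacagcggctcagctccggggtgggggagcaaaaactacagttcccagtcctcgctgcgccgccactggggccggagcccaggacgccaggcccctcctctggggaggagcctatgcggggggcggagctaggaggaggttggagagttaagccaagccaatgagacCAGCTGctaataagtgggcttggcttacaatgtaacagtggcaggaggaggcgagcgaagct
KCNH2 (chr7:150978322-150978571, minus strand): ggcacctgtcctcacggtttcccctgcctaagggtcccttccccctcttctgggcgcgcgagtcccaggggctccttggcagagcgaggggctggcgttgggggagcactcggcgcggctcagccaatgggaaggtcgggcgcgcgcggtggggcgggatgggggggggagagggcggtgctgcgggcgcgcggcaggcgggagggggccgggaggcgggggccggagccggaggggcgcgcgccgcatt
KCNK10 (chr14:88326913-88327162, minus strand): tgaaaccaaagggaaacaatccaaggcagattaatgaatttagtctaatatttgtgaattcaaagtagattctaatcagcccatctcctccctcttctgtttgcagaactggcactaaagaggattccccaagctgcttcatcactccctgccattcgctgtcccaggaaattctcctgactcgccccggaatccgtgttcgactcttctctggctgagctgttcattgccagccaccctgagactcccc
KCNF1 has CAGCTG starting 117 and 78 bases before the start, KCNS3 has it 196 and 134 bases before, KCNN3 has it 62 bases before, and the windows of KCNH2 and KCNK10 do not hold these letters. RefSeq windows were matched for 72 of the 97 genes and for 19 of the 26 tested genes. Of those 19, 4 held CAGCTG (21.1%), against 12.4% of 9119 tested protein-coding genes and 13.8% of all 27305 windows. The 4 were KCNF1, KCNS3 and KCNN3, which fell, and KCNJ15, which did not pass the test. Thus 3 of 7 genes that fell held the motif, 0 of 4 that rose and 1 of 8 that did not pass. Many of the 19 windows overlap the GENCODE 29 gene and so are not all upstream sequence. Among the 4 that rose, KCNH1, KCNMA1 and KCNQ5 have such windows and only that of KCNK10 lies outside. The KCNJ15 window also lies within its gene. Over all tested protein-coding genes with a window, 13.9% of those that fell and 11.5% of those that rose held it, and the motif was chosen with the values known. The looser CANNTG, which includes CAGCTG, was in 36.8% of the 19, against 52.5% of tested protein-coding genes. The Sp-type box GGGCGG, on either strand, was in 78.9%, against 68.6%, and TATAAA, on either strand, in 5.26%, against 4.95%. These are letter matches, and no binding was measured.

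Silent voltage-gated subunits held the largest fall among the tested potassium channel genes. KCNF1 encodes Kv5.1, a silent subunit, and lies in 1 exon block on the plus strand of chromosome 2 (10911937 to 10914225, GRCh38). KCNF1 read 15.5, 15.04, 15.5 and 17.7 CPM in control and 2.79, 4.65, 3.47 and 3.49 CPM in shPROX1. Every control library was at least 15.04 CPM and no shPROX1 library passed 4.65 CPM, and the fitted fall was 4.35-fold (log2 change -2.12 ± 0.18, adjusted p = 2.33e-09). Its window with 2 CAGCTG sites is printed above.

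KCNS3 encodes Kv9.3, a silent subunit that changes Kv2 gating (chromosome 2, 17877847 to 18361616, plus strand). It read 14.6, 11.3, 12.6 and 12.9 CPM in control and 5.82, 7.34, 8.27 and 5.35 CPM in shPROX1, again without overlap (log2 change -0.93 ± 0.17, adjusted p = 0.00015). KCNG1, the silent subunit Kv6.1, read 18.4, 13.3, 16.2 and 13.2 CPM in control and 10.7, 10.8, 14.4 and 9.07 CPM in shPROX1. Its groups overlapped and its fall was small (log2 change -0.42 ± 0.16, adjusted p = 0.0415). That call was lost without control replicate 1 or 3 or shPROX1 replicate 1, 2 or 4 (adjusted p from 0.0873 to 0.143), with no filter (0.0511) and in DESeq2 (0.0949). KCNG3, the silent subunit Kv6.3, had a mean of 10.8 ± 2.55 CPM in control and 9.90 ± 1.13 CPM in shPROX1 and did not pass the test (95% interval of the log2 change -0.48 to 0.25). Of the 10 silent subunit genes, 4 were tested, 3 fell and 0 rose, where 17.9% of all tested genes fell and 17.3% rose, and 1 of the 3 is the KCNG1 call that most single-library removals ended. The other 6 had too few counts. Among them KCNG4 (Kv6.4) stood at 1.51 CPM in control and 1.96 CPM in shPROX1, and KCNV1 (Kv8.1) had 2, 2, 1 and 1 counts in control and 6, 9, 6 and 2 in shPROX1.

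**Figure D3:**
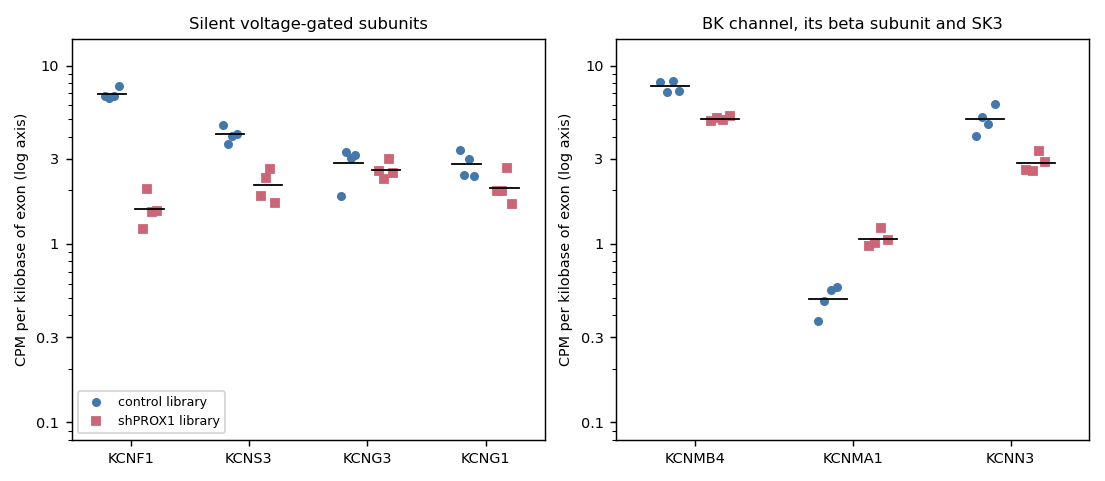
Levels per kilobase of exon (CPM per kilobase, log axis) in every library, with bars at the means. Left, the 4 tested silent subunit genes; right, KCNMB4, KCNMA1 and KCNN3. KCNMA1 is higher in all 4 shPROX1 libraries, while KCNF1, KCNS3, KCNMB4 and KCNN3 are lower.

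Of the ether-a-go-go family, KCNH1 and KCNH2 moved in opposite directions. KCNH1 encodes EAG1 (Kv10.1), a channel known in human myoblasts before fusion and in tumours. It read 5.89, 11.1, 7.50 and 10.1 CPM in control and 17.0, 14.2, 15.7 and 19.1 CPM in shPROX1, without overlap (log2 change 0.95 ± 0.17, adjusted p = 0.000113). KCNH1 (chromosome 1, 210676823 to 211134180, minus strand) shares 53.0% of its exon bases with other annotated genes, which had at most 10 counts in control and 13 in shPROX1, against 150 and 272 for KCNH1. KCNH2 encodes hERG (Kv11.1), which repolarizes the cardiac action potential (chromosome 7, 150944961 to 150978315, minus strand). It read 13.0, 13.8, 10.4 and 13.2 CPM in control and 3.26, 4.16, 4.54 and 4.65 CPM in shPROX1. All shPROX1 libraries lay below all control libraries, a 2.98-fold fall (log2 change -1.57 ± 0.18, adjusted p = 4.43e-07). The KCNH2 to KCNH1 ratio per kilobase went from 2.56 ± 0.747 to 0.424 ± 0.0787. Per kilobase of the full exon union, KCNH2 thus lay above KCNH1 in every control library, with ratios from 2.08 to 3.67. In shPROX1 it lay below KCNH1, with ratios from 0.320 to 0.489. The KCNH1 length of 9812 bases includes the 53.0% shared with other genes, and a shorter KCNH1 length would lower these ratios. The order in control may therefore depend on the length used. Whether the shared bases lost reads in counting was not tested. KCNH3 (ELK2), at 1.76 and 1.19 CPM, had too few counts to test.

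KCNQ5 had the most counts of the voltage-gated genes in both groups (chromosome 6, 72621792 to 73198851, plus strand). It read 44.8, 59.9, 59.3 and 58.8 CPM in control and 80.3, 66.1, 92.9 and 73.2 CPM in shPROX1 (log2 change 0.51 ± 0.09, adjusted p = 0.000185). The groups did not overlap, and control replicate 1 lay below the other control libraries. Without that library the rise was still past the threshold, and over all 8 removals of a library it ran from 0.42 to 0.58 on the log2 scale. KCNQ5 made up 32.6% ± 2.24 of all voltage-gated CPM in control and 48.1% ± 3.67 in shPROX1. KCNQ1 and KCNQ3, of the same family, had 1 to 9 counts each over all libraries.

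The Shaker (Kv1) and Shaw (Kv3) families gave 3 further falls. KCNA3 (Kv1.3), the delayed rectifier best known from T cells, read 3.77, 6.66, 4.84 and 4.73 CPM in control and 2.33, 1.96, 1.87 and 3.02 CPM in shPROX1 (log2 change -1.07 ± 0.27, adjusted p = 0.00329). KCNA2 (Kv1.2), an axonal low-threshold channel, read 3.06, 3.21, 3.14 and 3.49 CPM in control and 1.16, 1.47, 1.87 and 2.09 CPM in shPROX1. Both genes were lower in every shPROX1 library than in any control library, on few counts. KCNA2 reached the filter level in 4 control libraries and 0 shPROX1 libraries, and KCNA3 in 4 and 1. Both thus entered the test through control, so the filter favoured a fall. The KCNA2 fall (log2 change -0.94 ± 0.29, adjusted p = 0.0153) was not past the threshold without shPROX1 replicate 1 (0.0625), with no filter (0.0572) or in DESeq2 (0.0922). KCNC4 (Kv3.4), a fast inactivating channel also found in skeletal muscle, read 8.95, 10.6, 10.2 and 10.3 CPM in control and 2.79, 6.36, 8.01 and 4.18 CPM in shPROX1 (log2 change -0.90 ± 0.22, adjusted p = 0.00276). The control libraries lay close together and the shPROX1 libraries were spread, all below control. KCNC1 (Kv3.1), a channel of fast-firing neurons, had means of 5.91 ± 1.11 CPM in control and 5.07 ± 0.932 CPM in shPROX1 and did not pass the test, with a 95% interval of the log2 change of -0.64 to 0.25. KCND1 (Kv4.1) was the single A-type Shal gene at 1 CPM, with 22 counts in control and 20 in shPROX1, too few to test.

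Inward rectifiers were led by KCNJ3 (GIRK1; chromosome 2, 154698299 to 154858352, plus strand). It read 65.0, 72.5, 68.7 and 69.7 CPM in control and 60.1, 63.1, 67.0 and 61.4 CPM in shPROX1. The groups overlapped, and the log2 change of -0.11 ± 0.06 did not pass the test, with a 95% interval of -0.25 to 0.02 (adjusted p = 0.193). KCNJ3 held 68.0% ± 1.58 of the inward rectifier CPM in control and 70.3% ± 1.97 in shPROX1. KCNJ6 (GIRK2), a partner that GIRK1 needs for surface channels, had 10.9 ± 2.03 and 8.60 ± 2.10 CPM and did not pass (95% interval of the log2 change -0.71 to 0.05). Per kilobase KCNJ6 lay far below KCNJ3, at ratios of 0.0399 ± 0.00706 and 0.0346 ± 0.00723, which overlapped. The exon union of KCNJ6, 19965 bases against 5067 for KCNJ3, lowers this ratio, which in CPM was 0.157 ± 0.0278 in control and 0.136 ± 0.0285 in shPROX1. The other known GIRK1 partners were nearly silent, since KCNJ9 had 0 counts and KCNJ5 had 1 to 9.

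KCNJ11 was the 1 inward rectifier that fell. It encodes Kir6.2, the pore of the ATP-sensitive channel that couples metabolism to membrane potential in muscle and beta cells. KCNJ11 read 14.1, 9.37, 10.6 and 8.43 CPM in control and 5.82, 6.36, 4.27 and 6.51 CPM in shPROX1, without overlap (log2 change -0.85 ± 0.20, adjusted p = 0.00199). KCNJ8, the alternative pore Kir6.1, had 18 counts in control and 10 in shPROX1 and was not tested. Of the sulfonylurea receptors that complete the channel, ABCC9 (SUR2) stood at 13.5 ± 1.43 and 10.4 ± 1.24 CPM and did not pass (log2 change -0.37 ± 0.15, adjusted p = 0.0557), and ABCC8 (SUR1) was near 0.

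Classical Kir2 channels were low. KCNJ12 (Kir2.2) read 2.36, 2.71, 1.21 and 3.91 CPM in control and 4.66, 4.404, 4.003 and 3.49 CPM in shPROX1. Its groups overlapped and it did not pass (log2 change 0.69 ± 0.29, adjusted p = 0.0661). It passed without control replicate 4 (log2 change 0.995, adjusted p = 0.0184) and in limma voom (0.78, adjusted p = 0.0467). KCNJ12 has the near-identical copy KCNJ18, which had 0 counts, and reads of the pair may have been lost or shared in the authors' counting. KCNJ14 (Kir2.4) had means of 2.68 ± 1.35 and 2.42 ± 0.431 CPM (95% interval of the log2 change -0.83 to 0.57) and shares 25.0% of its exon bases with other genes, among them GRWD1 at 125 and 137 CPM. KCNJ15 (Kir4.2) had 3.92 ± 0.579 and 4.41 ± 1.06 CPM (95% interval -0.32 to 0.68), and neither passed the test.

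Two-pore channels came down to KCNK5 and KCNK10, and the remaining 13 genes were below 1 CPM in both groups. KCNK5 (TASK-2) read 40.3, 31.6, 32.4 and 33.9 CPM in control and 32.8, 27.4, 26.2 and 32.5 CPM in shPROX1. The groups overlapped and the log2 change of -0.19 ± 0.10 did not pass (adjusted p = 0.166). KCNK10 encodes TREK-2, a leak channel opened by stretch, lipids and heat. It read 4.24, 2.96, 2.18 and 5.34 CPM in control and 7.68, 6.36, 6.67 and 7.90 CPM in shPROX1 (log2 change 0.96 ± 0.24, adjusted p = 0.00292). The shPROX1 libraries all lay above the control libraries, and the KCNK10 share of two-pore CPM was 9.15% ± 2.83 in control and 18.8% ± 0.774 in shPROX1. KCNK10 reached the filter level in 4 shPROX1 libraries and 3 control libraries. Control alone would not have brought it into the test, so the filter may have favoured a rise. KCNK5 kept most of the class, at 87.5% ± 4.34 and 77.9% ± 0.258.

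In the calcium-activated family the 2 tested genes changed in opposite directions. KCNMA1 encodes the BK channel, opened by calcium and voltage together (chromosome 10, 76869601 to 77638369, minus strand). It read 13.2, 17.0, 19.6 and 20.3 CPM in control and 34.9, 36.2, 43.8 and 37.4 CPM in shPROX1. Every shPROX1 library lay above every control library, and the 2.19-fold rise was the largest among the tested potassium channel genes in this fit (log2 change 1.13 ± 0.12, adjusted p = 6.97e-08). KCNN3 encodes SK3, a channel opened by calcium through calmodulin, known in fetal and denervated muscle (chromosome 1, 154697455 to 154870280, minus strand). It read 55.1, 70.3, 64.1 and 83.0 CPM in control and 35.4, 34.7, 45.1 and 39.3 CPM in shPROX1, without overlap (log2 change -0.80 ± 0.10, adjusted p = 1.84e-06). KCNN3 held 77.2% ± 1.29 of the family's CPM in control and 48.3% ± 1.31 in shPROX1, and KCNMA1 held 19.9% ± 2.09 and 47.6% ± 0.779. The KCNN3 to KCNMA1 ratio per kilobase was 11.0, 10.8, 8.58 and 10.7 in control and 2.66, 2.52, 2.70 and 2.75 in shPROX1, a narrow range within each group. The exon union of KCNMA1, 35644 bases against 13598 for KCNN3, raises this ratio. In mean CPM, KCNN3 stood at 68.1 against 17.5 for KCNMA1 in control and at 38.6 against 38.1 in shPROX1. KCNN1 (SK1) and KCNN4 (the intermediate-conductance channel) stood at 1.51 and 0.804 CPM in control and at 1.27 and 1.39 CPM in shPROX1, too few counts to test.

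Auxiliary subunits were led by KCNMB4, the BK beta subunit best known from neurons, which slows BK gating. It read 39.6, 34.8, 39.7 and 35.1 CPM in control and 23.7, 24.7, 24.0 and 25.3 CPM in shPROX1. The libraries within each group lay close together and the groups were apart (log2 change -0.58 ± 0.09, adjusted p = 2.58e-05). Its pore KCNMA1 rose while KCNMB4 fell, and the KCNMB4 to KCNMA1 ratio per kilobase was 21.9, 14.9, 14.8 and 12.6 in control and 4.97, 4.99, 4.01 and 4.95 in shPROX1. The exon union of KCNMA1, 35644 bases against 4874 for KCNMB4, raises this ratio. In mean CPM, KCNMB4 lay above KCNMA1 in control (37.3 against 17.5) and below it in shPROX1 (24.5 against 38.1). KCNMB3, a further BK beta subunit, had 45 and 31 counts and was not tested. Of the cytoplasmic beta subunits of Kv1 channels, KCNAB2 stood at 9.08 ± 1.23 and 9.26 ± 0.571 CPM (95% interval of the log2 change -0.28 to 0.38). KCNAB3 read 4.24, 5.43, 5.08 and 4.93 CPM in control and 4.19, 2.69, 2.40 and 3.49 CPM in shPROX1. The KCNAB3 libraries did not overlap, by a narrow margin, but the gene did not pass (log2 change -0.58 ± 0.24, adjusted p = 0.0641), and it did without shPROX1 replicate 1 (-0.74, adjusted p = 0.0387). The 6 KCNE genes, small membrane partners of KCNQ and ERG pores, were all below 1 CPM in both groups. KCNIP2 and KCNIP3, calcium-binding partners of Kv4, stood at 1.14 and 1.28 CPM in control and were not tested.

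Summed over all members, the classes moved less than their genes. The voltage-gated sum was 152, 178, 172 and 179 CPM in control and 153, 151, 189 and 155 CPM in shPROX1, which overlapped. The falls of KCNF1, KCNH2 and KCNS3 and the rise of KCNQ5 stood side by side in that sum, and KCNF1 went from 9.39% to 2.25% of it. The inward rectifier sum was lower in every shPROX1 library, at 89.5 ± 4.26 CPM against 101 ± 3.32 CPM in control. The margin was narrow, with the highest shPROX1 library at 95.5 CPM and the lowest control library at 97.3 CPM. The auxiliary sum was also lower in every shPROX1 library, at 42.4 ± 1.31 against 58.6 ± 3.06 CPM. The two-pore sums of 39.6 ± 5.30 and 38.1 ± 4.47 CPM and the calcium-activated sums of 88.3 ± 14.8 and 79.9 ± 8.12 CPM overlapped. All 97 genes together made 458 ± 26.3 CPM in control and 412 ± 26.7 CPM in shPROX1, with overlap. Sums follow the abundant genes, and no test was made of them.

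**Figure D4:**
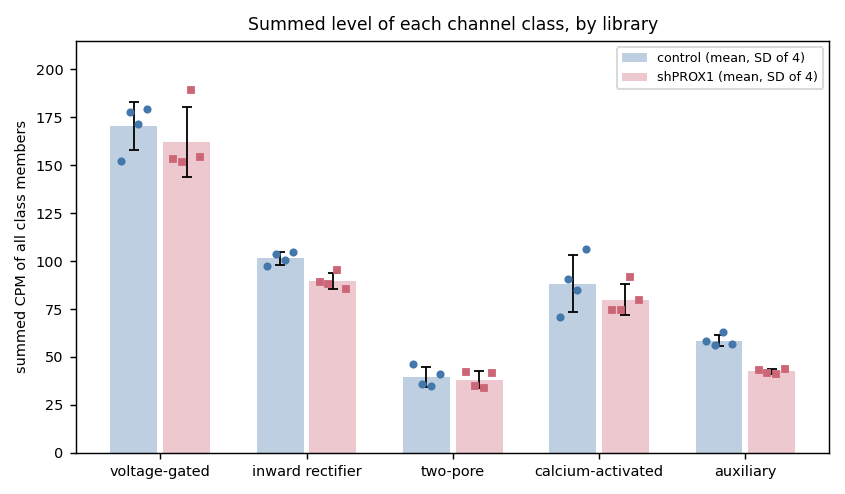
Summed CPM of all genes of each class in every library, with bars at the mean of 4 libraries and error bars of 1 SD (control left, shPROX1 right in each pair). The inward rectifier and auxiliary sums do not overlap between groups, and the other 3 do.

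The genes that rose were long. Measured from first to last annotated base, the 5 that rose spanned 147 to 769 kilobases (median 457), the 10 that fell 2.29 to 484 kilobases (median 50.7) and the 11 that did not pass 7.95 to 514 kilobases (median 52.1). None of the 13 tested potassium channel genes of up to 100 kilobases rose, and 7 of them fell. From 100 to 200 kilobases, 2 rose, 2 fell and 4 did not pass, and above 200 kilobases, 3 rose, 1 fell and 1 did not pass. Over all tested protein-coding genes, the share that rose was 17.9% up to 20 kilobases, 17.2% from 20 to 100, 20% from 100 to 200 and 21.6% above 200 kilobases. The share that fell was 17.6%, 18.6%, 21.2% and 18.9% in the same order. The Spearman correlation across genes between span and log2 change was 0.514 over the 26 tested genes and 0.0199 over 11403 tested protein-coding genes. It is a description only, since the genes share the 8 libraries and are not independent replicates. Across all tested protein-coding genes the median log2 change was -0.01 up to 20 kilobases and 0.01 above 200 kilobases.

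**Figure D5:**
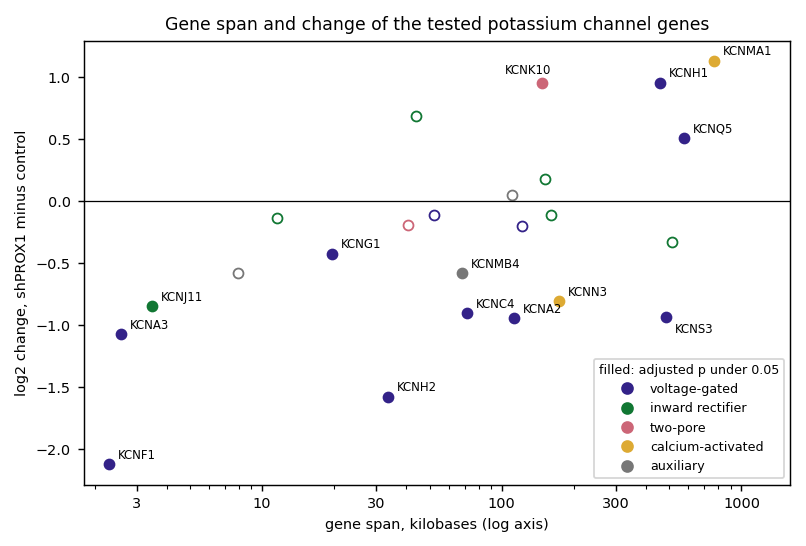
Gene span in kilobases (log axis) against log2 change (shPROX1 minus control) for 24 of the 26 tested potassium channel genes, coloured by class and filled where the adjusted p was under 0.05. The 4 filled points above 0 lie at 147 kilobases or more, while filled points below 0 run from 2.29 kilobases (KCNF1) to 484 kilobases (KCNS3).

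Genes without a KCN symbol that work with these channels or carry potassium were counted from 4 lists of 58 genes, of which 31 were tested, 9 rose (29%, against 17.3% of all tested genes) and 8 fell (25.8%, against 17.9%). Among 11 tested channel partners, 3 rose and 3 fell. AMIGO1, a membrane protein that accompanies Kv2 channels, fell from 51.6 ± 4.17 to 27.2 ± 2.33 CPM (log2 change -0.90 ± 0.09, adjusted p = 2.89e-08). DLG1, a scaffold that clusters Kv1 and Kir channels, rose by 0.45 ± 0.06 on the log2 scale. CALM2 and CALM3, calmodulin genes whose product is the calcium sensor of SK and KCNQ channels, rose by 0.20 ± 0.05 and 0.21 ± 0.06. AKAP9, a kinase anchor of KCNQ channels, changed by -0.21 ± 0.07, and the most abundant partner that did not pass was VAPA at 0.14 ± 0.06.

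Of 6 tested genes of the sodium-potassium pump, which builds the potassium gradient, 4 rose and 1 fell, with the same shares of all tested genes (17.3% and 17.9%) as background. FXYD5, a regulatory subunit, rose from 9.78 ± 1.17 to 19.9 ± 1.36 CPM (log2 change 1.04 ± 0.13, adjusted p = 1.46e-06), and FXYD6, its relative, fell by 0.39 ± 0.10 on the log2 scale. The beta subunits ATP1B1 and ATP1B3 rose by 0.38 ± 0.06 and 0.21 ± 0.06. Of 9 tested genes of potassium-chloride cotransport and its kinases, 1 rose and 3 fell. These were the kinase WNK1 (0.29 ± 0.09), the cotransporter SLC12A2 (-0.33 ± 0.07) and the kinases STK39 (-0.25 ± 0.08) and OXSR1 (-0.23 ± 0.06). SLC12A7 was the most abundant that did not pass (-0.25 ± 0.10). Of 5 tested genes of other potassium-permeable channels, TMEM38A, a counter-ion channel of the sarcoplasmic reticulum, fell (-0.51 ± 0.13), its relative TMEM38B rose (0.19 ± 0.06), and TMEM175, a lysosomal channel, was the most abundant apart from these and did not pass (-0.54 ± 0.24).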

How the data were processed

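Total RNA of 8 RD libraries was made into strand-marked libraries, per the labels' protocols. The authors deposited unnormalized counts per gene, in 1 file per library. FastQC, HISAT2, HTSeq, DESeq2 and the build GRCh38 (hg38) are named in the submitters' processing notes. Tool versions and whether the counting used strand were not given in the sources used. Groups and replicate numbers came from the titles. Identifiers were matched to GENCODE 29 (58039 of 58302), which gave symbols, coordinates (1-based) and exon unions. Upstream windows came from RefSeq (GRCh38.p14).

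The test was the quasi-likelihood F test of edgeR 4.0.16 (R 4.3.3), with group alone in the model, TMM scaling and the filterByExpr rule, and p-values were adjusted by Benjamini-Hochberg over 12392 genes at a threshold of 0.05. Log2 changes (shPROX1 minus control) carry the fit's standard error, and CPM values are means ± SD of 4 libraries, without TMM factors. The biological coefficient of variation was 6.41%. PROX1 and library totals were also permuted exactly (70 arrangements, two-sided; PROX1 p = 0.0286, the smallest possible). Limits for 0 counts use 3 counts and cover counting error only.

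The 97 genes, the classes, partner lists and markers were chosen with earlier results of these data known. Named genes were PROX1, each tested potassium channel gene, and per partner list up to 4 that passed with the largest change and the most abundant that did not; untested genes are named where counts were highest among them or, after their values were seen, where their family is discussed, as are gene span and motifs. Some named genes are not reported here, but they count in the totals. All 12 within-group pairs of libraries differed by more than counting noise (chi-square over degrees of freedom at least 1.19). This value ran from 2.39 to 6.34 in control pairs and from 1.19 to 2.16 in shPROX1 pairs, so control libraries differed more from each other. On simulated data with 12207 genes in the fit, the shPROX1 against control test found 79.1% of the 67 genes set to a log2 size of 0.5, 98.5% of the 67 set to 1 and 100% of the 66 set to 2, and 7 of 12007 genes left unchanged also passed. The changed genes were drawn only from genes with more counts, and every gene had the same coefficient of variation, 6.41%. These shares therefore do not cover the tested potassium channel genes with few counts. The alternatives changed the scaling (RLE, upper quartile), the filter (none, 1 CPM in 4 libraries), the tool (DESeq2 1.42.0, limma 3.58.1 voom), the model (a replicate block), the libraries (each left out), the threshold (0.01) and the expression level (0.5 and 2 CPM). Python 3.11.15 was used for the summaries.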

Additional observations from a re-analysis of the deposited data

Results flagged for a closer look

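Of 58 groups of 4 libraries examined for a library far from the rest, 3 stood out, and chance alone gives about 1 in 20. KCNQ5 in control had a lowest library, replicate 1, at 44.8 CPM, with the other 3 at 58.8 to 59.9 CPM. KCNJ15 in control had its lowest library, also replicate 1, at 3.06 CPM, with the others at 4.11 to 4.32 CPM. The summed voltage-gated CPM in shPROX1 had a highest library, replicate 3, at 189 CPM, with the others at 151 to 155 CPM.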

How the results depend on the processing

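Over 16 alternatives, 365 of 384 values of the 24 tested genes given here kept their direction and their side of the threshold, 12 lost the call (KCNG1 and KCNA2), 3 gained it (KCNJ12 and KCNAB3) and 4 changed sign. The sign changes were in genes that did not pass: KCNJ14 (0.0038 in limma voom, and -0.36 to 0.086 with a library left out, above 0 without control replicate 2 or 4) and KCNAB2 (-0.035 to 0.094, below 0 without control replicate 1). The inward rectifiers that passed numbered 2 in limma voom, and 1 to 2 with a library left out. The auxiliary genes that passed numbered 1 to 2 with a library left out. The cause was not tested. The potassium channel genes that rose stayed at 5 to 6 and those that fell at 8 to 10 in all alternatives, and the genes passing numbered 2986 to 4426 over all tested genes. At 0.5 and 2 CPM, 37 and 27 potassium channel genes were expressed in control and 39 and 25 in shPROX1. With the replicate number as a block, 5 rose and 10 fell and 4187 genes passed in all. Same-numbered libraries did not deviate together (correlations -0.03, -0.05, 0.05 and -0.03). No pairing by number was thus seen, though correlations of this kind cannot exclude that libraries were prepared in pairs. Depth limits the 71 untested genes, for which no change can be stated.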

Other observations

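Of 21 genes with a KCN symbol that are not protein-coding, 7 had any counts. KCNQ1OT1, the imprinted antisense transcript within KCNQ1, was the most abundant, at 116 ± 24.8 CPM in control and 117 ± 5.55 CPM in shPROX1, and did not pass edgeR's test (log2 change 0.03 ± 0.09, adjusted p = 0.826), while KCNQ1 itself had 1 to 9 counts in all libraries. KCNQ5-IT1, annotated as sense intronic within KCNQ5, had 8, 10, 14 and 21 counts in control and 25, 14, 17 and 30 in shPROX1. Its groups overlapped, and it rose with KCNQ5 (log2 change 0.79 ± 0.28, edgeR adjusted p = 0.030). KCNH1-IT1, within KCNH1, had 19 counts in control and 27 in shPROX1, too few to test. The antisense genes KCNMA1-AS1 and KCNIP2-AS1 had 4 and 11 counts in all libraries.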
